A study of Homo sapiens with 17 samples.

Results

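The olfactory receptor clusters of chromosome 11 were examined in Flag ChIP-seq peak lists of inducible pioneer factors in U2OS cells, a human osteosarcoma line. The genes were taken by symbol, as RefSeq protein-coding genes of GRCh38 named OR, a number, letters and a number. On chromosome 11, 168 such genes were placed, in 11 clusters. All peaks whose summit lay within 20 kb of one of these genes were counted as their peaks. These windows numbered 48 and covered 4.81 Mb, or 3.56% of the 135.1 Mb of chromosome 11 used. They held 227 of the 208775 peaks in all 8 lists, and the rest of the chromosome held 8695. The 3 matching genes OR9G9, OR8U8 and OR8U9 were left out, because the gene table carries them with alternate contigs.

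Each of the 8 factors was a Flag-tagged protein expressed from a Tet-on construct, with 4 days of doxycycline at 500 ng/ml in every factor group (the extraction protocol writes ng/ul). The groups were FOXA1, FOXA2 and FOXA3 at full length, the same proteins with the CTD deleted, SOX2 at full length, and SOX2 fused to the CTD of FOXA2. The 17 samples were 2 biological replicates in each of the 8 groups and 1 input. All groups therefore share the U2OS background and the inducer, and the labels do not say whether a line is 1 clone. Each group is represented by 1 combined list of both replicates, and library depths are unknown. Differences between lists thus have no replicate check, and the 95% intervals given here cover counting error over peaks only.

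Olfactory receptors are the largest family of G protein-coupled receptors. Their genes are short, lie in clusters among many pseudogenes, and in the nose each sensory neuron transcribes a single receptor allele. In other cells the clusters are silent and packed in heterochromatin, and in the neurons distant enhancers and the factors LHX2, EBF and LDB1 take part in the choice. Forkhead proteins of the FOXA family and SOX2 are called pioneer factors because they can bind their sites in closed chromatin. Neither chromatin state nor receptor transcription was measured in the data used here.

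The first receptor gene to show is OR4B1, the 1 gene of the family whose promoter held a summit of 2 lists. RefSeq promoters of 300 bases, from 250 before the start to 50 after it, matched 135 of the 168 genes. The share of all promoters with a peak was not counted, and peaks overlapped 5 of the receptor promoters. These were OR4B1, OR4C3, OR4C5, OR4C6 and OR5A2. A summit lay inside the promoter of only OR4B1 and OR4C5 among them, so both are printed, 5′ to 3′ on the strand of the gene. Capitals mark matches, on either strand, to the forkhead letters TGTTTAC or TGTTTAT or TATTTAC or TGTTTGC. The word TGTTTAT was added to this set after the OR4B1 sequence had been read.
OR4B1 promoter, chr11:48216560-48216859, plus strand: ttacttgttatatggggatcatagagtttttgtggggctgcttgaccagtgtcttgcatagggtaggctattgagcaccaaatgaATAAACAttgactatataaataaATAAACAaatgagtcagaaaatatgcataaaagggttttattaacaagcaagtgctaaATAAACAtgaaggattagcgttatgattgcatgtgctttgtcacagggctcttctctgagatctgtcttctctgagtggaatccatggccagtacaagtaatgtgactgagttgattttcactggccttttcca
OR4C5 promoter, chr11:48366416-48366715, minus strand: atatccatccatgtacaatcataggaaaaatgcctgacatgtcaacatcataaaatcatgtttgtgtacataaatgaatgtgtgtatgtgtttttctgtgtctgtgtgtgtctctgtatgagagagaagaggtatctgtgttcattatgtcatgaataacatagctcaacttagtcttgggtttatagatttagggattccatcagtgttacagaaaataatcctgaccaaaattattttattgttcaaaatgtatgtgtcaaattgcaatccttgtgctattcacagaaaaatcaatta

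In OR4B1 the letters TGTTTAT occurred 3 times, at bases 86 to 92, 109 to 115 and 167 to 173 of the window, each on the opposite strand. The FOXA1 full-length summit lay at base 105, with a −log10 p of 4.15 and 3.98 in the replicates. The FOXA1 CTD-deleted summit lay at base 138, with 2.96 and 10.3. In OR4C5 none of the letters occurred, and the FOXA2 full-length summit lay at base 73, with a −log10 p of 1.54 and 2.39. The 4 words together occurred in 24.4% (Wilson interval 18.0% to 32.3%) of the 135 receptor promoters and in 10.1% of all 15812 promoters in the table. Among 179 receptor promoters of other chromosomes the share was similar, 26.8% (20.9% to 33.7%), with a median of 38.3% G and C. The 135 receptor promoters of chromosome 11 are also poor in G and C, with a median of 37.0% against 62.7% over all promoters. Of the words that were not picked from a receptor sequence, TGTTTAC occurred in 4.44% of them (2.05% to 9.36%) and in 2.62% of all. TATTTAC occurred in 8.15% and 1.99%, and TGTTTGC in 0 (up to 2.77%) and 3.16%. The SOX letters ACAATG or ACAAAG occurred in 39.3% of the chromosome 11 receptor promoters, 38.0% of those on other chromosomes and 19.3% of all. Such matches are descriptions of the letters and not bound sites.

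The 4 lists of FOXA1 and FOXA2 reached the receptor clusters, and the SOX2 list had no peak there. The FOXA1 full-length list had 31 of its 1584 chromosome 11 summits in the windows, and the FOXA1 CTD-deleted list had 68 of 2128. FOXA2 had 51 of 2002 at full length and 64 of 2320 with the CTD deleted. Both FOXA3 lists had 5, of 237 at full length and 264 after deletion, and these 5 rows were identical in the 2 lists. The SOX2 list had 0 of 29, with a Wilson upper limit of 11.7% for the share, so a presence at the level of the FOXA lists was not detectable with this number of peaks. Of these 29 summits 27 lay in 1 gene-free stretch of 4.17 Mb, and without it only 2 were left to compare. The SOX2-FOXA2 CTD fusion had 3 of 358. The same gene-free stretch held 278 summits of FOXA2 full length, 140 of FOXA2 CTD-deleted and 71 of the fusion. It held 11 and 14 of the FOXA1 lists and 19 and 8 of the FOXA3 lists, at full length and after deletion. All of these count in the rest of the chromosome unless the stretch is left out.

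For most lists the summits were sparser in the windows than elsewhere on the chromosome. FOXA1 at full length had 6.44 summits per Mb in the windows and 11.9 in the rest, a ratio of 0.540 (exact conditional interval 0.366 to 0.770). With peaks of an IDR (irreproducible discovery rate, the disagreement of replicates) of at most 0.05 that interval came to include 1, at 0.762 (0.391 to 1.35). FOXA1 without its CTD had 14.1 and 15.8 per Mb, a ratio of 0.893 (0.691 to 1.14), whose interval includes 1. The ratio was 0.707 (0.525 to 0.934) for FOXA2 at full length and 0.768 (0.589 to 0.984) after deletion. Both FOXA2 intervals came to include 1 when this stretch, the longest gene-free one of the chromosome, was left out, with ratios of 0.799 (0.592 to 1.05) and 0.792 (0.608 to 1.02). The FOXA3 ratios, 0.583 (0.188 to 1.38) and 0.522 (0.168 to 1.23), rest on 5 summits each. The fusion had the lowest ratio of the lists with a member, 0.229 (0.0469 to 0.674). In the list of its first replicate alone that ratio was 0.795 (0.612 to 1.02), with 65 summits in the windows, so the low value belongs to the combined list.

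The windows also differ from the rest of the chromosome in gene content, since 201 of the 227 peaks lay over 20 kb from any other protein-coding gene. They were therefore set beside the sequence over 20 kb from every protein-coding gene, with the gene-free stretch left out. There the FOXA1 full-length ratio was 0.516 (0.347 to 0.740) and the FOXA1 CTD-deleted ratio was 0.779 (0.600 to 0.998). FOXA2 gave 0.887 (0.653 to 1.18) at full length and 0.782 (0.597 to 1.01) after deletion. The fusion gave 0.348 (0.0704 to 1.05). These ratios used all windows, some of which lie within 20 kb of other genes. With only window sequence over 20 kb from other genes, FOXA1 gave 0.526 (0.343 to 0.773) at full length. After deletion it gave 0.805 (0.609 to 1.05), which includes 1. FOXA2 then gave 0.916 (0.661 to 1.24) and 0.815 (0.612 to 1.07), and the fusion 0.272 (0.0324 to 1.01).

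The receptor windows were also counted by receptor class. Class I receptors, the families OR51, OR52 and OR56, are the older, fish-like branch, and all 55 lie in 1 cluster on the short arm. The other 113 genes are class II. The plot of summits per Mb separates the classes, a split made after the cluster counts had been seen. In class I windows, 1.53 Mb, the 4 FOXA1 and FOXA2 lists had 5, 12, 5 and 9 summits, in the order FOXA1 full length, FOXA1 CTD-deleted, FOXA2 full length and FOXA2 CTD-deleted. In class II windows, 3.28 Mb, they had 26, 56, 46 and 55. Class I is 1 locus, and the class II clusters were not uniform. The short OR5P2 to OR10A3 and OR4C46 to OR4A5 clusters had 1 summit each, in the FOXA1 CTD-deleted list.

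**Figure D1:**
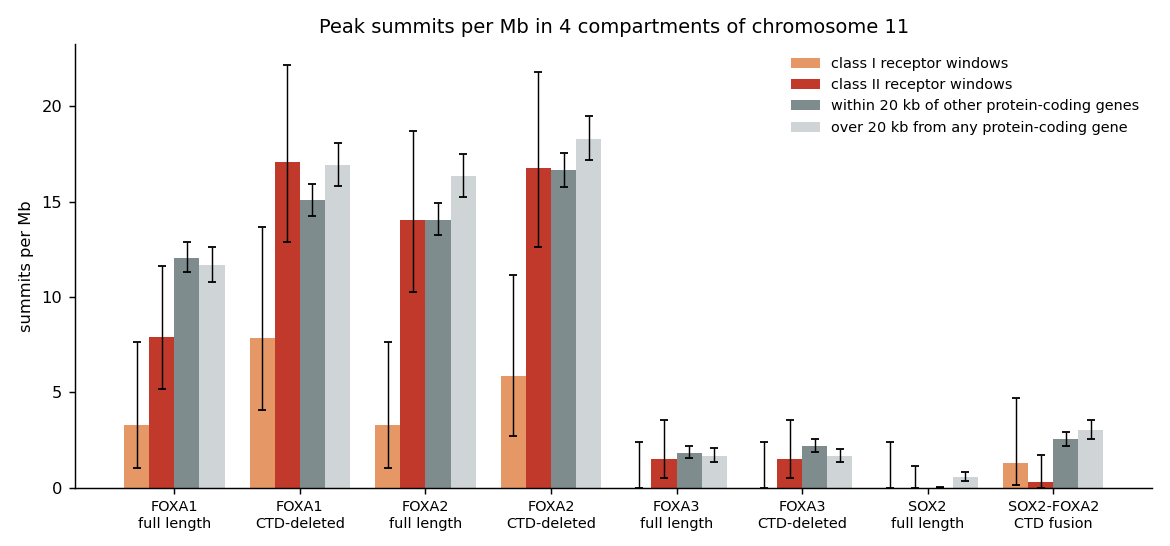
Summits per Mb (vertical axis) of each of the 8 lists (horizontal axis) in class I receptor windows, class II receptor windows, sequence within 20 kb of other protein-coding genes and sequence farther than that; whiskers are exact 95% Poisson intervals of the counts. The class I bars of the FOXA1 and FOXA2 lists, 3.26 to 7.83 per Mb, are below the class II bars, 7.92 to 17.1 per Mb.

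For FOXA2 the class I density was 0.233 (0.0721 to 0.583) of the class II density at full length and 0.350 (0.152 to 0.714) after deletion. For FOXA1 without its CTD it was 0.459 (0.224 to 0.866), and for FOXA1 at full length 0.412 (0.123 to 1.09), where the interval includes 1. At an IDR of at most 0.05 the FOXA2 CTD-deleted value was 0.306 (0.0337 to 1.33), and the FOXA2 full-length list had too few summits for a value. Against the rest of the chromosome, class II windows had ratios near 1 in 3 of these lists. They were 1.08 (0.812 to 1.41) for FOXA1 CTD-deleted, 0.936 (0.683 to 1.25) for FOXA2 full length and 0.968 (0.727 to 1.26) for FOXA2 CTD-deleted. In the FOXA1 full-length list class II windows were also below the rest, at 0.665 (0.433 to 0.978). Class I windows lay below the rest in all 4, from 0.218 (0.0706 to 0.509) in FOXA2 full length to 0.495 (0.255 to 0.867) in FOXA1 CTD-deleted. FOXA3 had all of its 5 receptor summits in class II windows, and the fusion had 2 in class I and 1 in class II windows.

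Clusters were next set against stretches of their own length, tiled along the same chromosome. The 7 clusters of at least 5 genes held 159 of the 168 genes. The class I cluster runs from OR52B4 to OR52W1 (chr11:4347263-6220186, 1.87 Mb with its margins). For every cluster, the counts in this comparison cover the whole span, gaps included. FOXA1 full length had 8 summits there, where the 60 stretches had a median of 23 and 8 stretches had as few. FOXA2 full length had 7 against a median of 24.5, and 4 stretches had as few. The CTD-deleted lists had 17 against 28 for FOXA1 and 14 against 30 for FOXA2, with as few in 14 and 8 stretches. All 4 lists were thus below the median at the class I cluster and inside the range of the stretches. The stretches between the start of the short arm and this cluster were low too. They held 6 and 8 summits for FOXA1 full length and 6 and 6 for FOXA1 CTD-deleted. For FOXA2 they held 10 and 8 at full length and 8 and 6 after deletion. Except for FOXA2 full length, these counts were at or below that of the cluster. For FOXA2 full length the 4 stretches with as few were the last 4 of the long arm, with 0 or 1 summits each. The other FOXA1 and FOXA2 lists had 0 to 4 summits in each of these end stretches. The nearly empty end of the long arm also counts in the rest of the chromosome, and leaving it out was not tested.

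The largest class II cluster, OR4A16 to OR5AK2 (chr11:55323201-57009843, 46 genes), sat near the middle of its 67 stretches. FOXA1 had 14 summits at full length against a median of 22, and 27 against 26 after deletion. FOXA2 had 22 against 24 at full length and 28 against 28 after deletion. At OR6X1 to OR8A1 on the long arm, with 22 genes, the counts were at or over the middle except for FOXA1 full length. They were 7 and 16 for the FOXA1 lists against medians of 11 and 14, and 16 and 22 for the FOXA2 lists against 11 and 14. Of these summits, 4 and 11 in the FOXA1 lists and 10 and 14 in the FOXA2 lists lay within 20 kb of a receptor gene. At OR5AN1 to OR10V1 the whole-span counts of 5, 9, 6 and 8, in the same list order, included 1, 4, 2 and 4 such summits. By whole-span counts, 5 of the 7 clusters were below their median for FOXA1 full length, 1 for FOXA1 CTD-deleted, and 3 for each FOXA2 list.

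**Figure D2:**
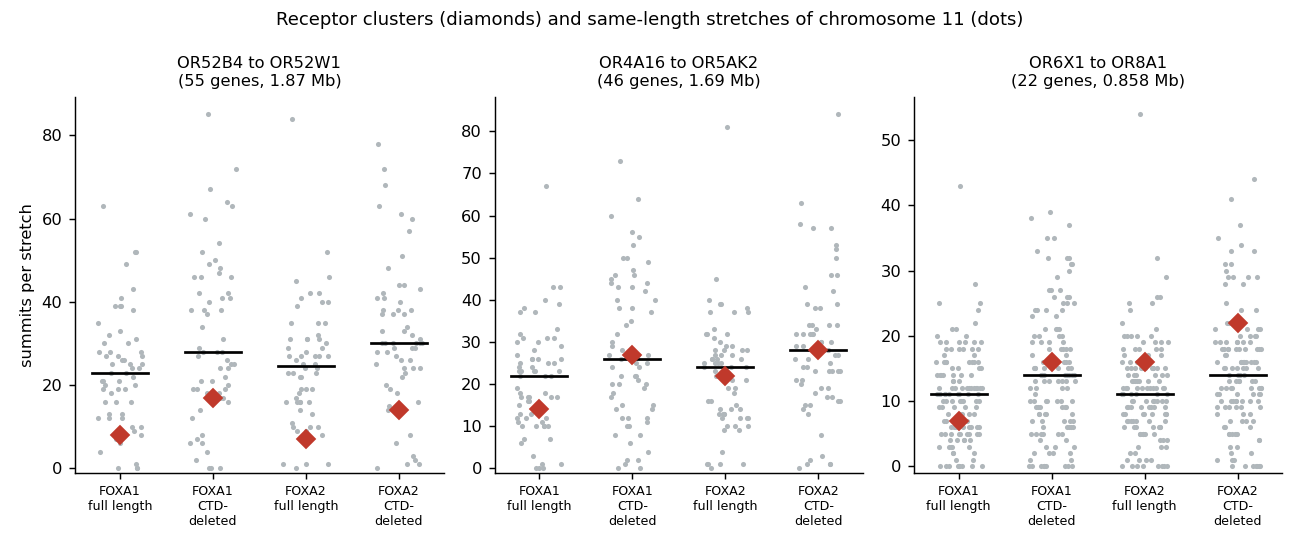
Number of summits (vertical axis) in the whole span of the 3 largest receptor clusters (red diamonds) and in stretches of equal length tiled along chromosome 11 (grey dots, with the median as a black line) for the 4 FOXA1 and FOXA2 lists. The OR52B4 to OR52W1 diamonds, 7 to 17 summits, are below the medians of 23 to 30, while 2 of the OR4A16 to OR5AK2 diamonds are below theirs.

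In the lists as deposited, FOXA1 without its CTD had a larger share of its summits near receptors than FOXA1 at full length. The share of chromosome 11 summits near receptors was 1.96% at full length and 3.20% after deletion, a difference of 1.24 points (Newcombe interval 0.191 to 2.25). The deleted list had 2.19 times as many receptor summits (1.41 to 3.47), and 1.33 times as many in the rest of the chromosome (1.24 to 1.42). In sequence over 20 kb from any protein-coding gene it had 1.45 times as many (1.30 to 1.61). The lists were made with different limits, an IDR of up to 0.200 at full length and 0.0501 after deletion. With both held to an IDR of at most 0.05, the shares came from 12 of 438 and 68 of 2128 summits, and the difference was 0.456 points (−1.64 to 1.89). With equal numbers of the strongest peaks it was 0.969 (−0.116 to 2.08), and with windows of 50 kb it was 1.07 (−0.240 to 2.33). The interval of the FOXA1 difference thus included 0 under these 3 settings.

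The FOXA2 lists differed by 0.211 points (−0.773 to 1.17), from 2.55% at full length to 2.76% after deletion. The FOXA2 count ratio of the deleted to the full-length list was 1.25 (0.855 to 1.85) at the receptors and 1.16 (1.09 to 1.23) in the rest. In sequence over 20 kb from any protein-coding gene that ratio was 1.12 (1.02 to 1.23). With the longest gene-free stretch left out there, it was 1.42 (1.28 to 1.59). Without this stretch the FOXA2 difference in share was −0.0225 points (−1.13 to 1.04). The FOXA3 difference was −0.216 points (−3.16 to 2.53), in lists that share 5012 identical rows, 81.8% of the full-length list. Addition of the FOXA2 CTD to SOX2 gave 0.838% in place of 0, a difference of 0.838 points (−10.9 to 2.43). In the first-replicate lists the SOX2 share was 1.84% (13 of 705) and the fusion share 2.85% (65 of 2277), a difference of 1.01 points (−0.411 to 2.09).

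Receptor genes on 17 other chromosomes, 221 genes in 7.30 Mb of windows, were counted in the same way. Their density ratio to the rest of those chromosomes was 0.660 (0.504 to 0.850) for FOXA1 at full length and 0.758 (0.611 to 0.930) after deletion. FOXA2 had 0.612 (0.473 to 0.779) and 0.863 (0.710 to 1.04). Shares here are of all summits on these 17 chromosomes, so their points are not on the scale of those of chromosome 11. The FOXA1 share was 0.201% at full length and 0.231% after deletion. The FOXA1 pair there differed by 0.0298 points (−0.0419 to 0.0986), an interval that includes 0. The FOXA2 pair, with 0.187% and 0.263%, differed by 0.0763 points (0.00881 to 0.143). The pair whose interval left out 0 was therefore not the same on chromosome 11 and on the other chromosomes.

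Seen from the genes, 120 of the 168 receptor genes had a summit of at least 1 list within 20 kb and 48 had none. The share of all protein-coding genes reached by at least 1 list was not counted, so only the single-list counts have a background. FOXA1 full length reached 44 genes, or 26.2%, against 55.9% of all 19835 protein-coding genes. FOXA1 CTD-deleted reached 85, or 50.6%, against 54.1%. FOXA2 reached 67 at full length, or 39.9% against 59.7%, and 77 after deletion, or 45.8% against 61.2%. FOXA3 reached the same number in both lists, 8 genes or 4.76%, against 16.3% at full length and 18.5% after deletion. SOX2 reached 0 receptor genes against 0.560% of all, and the fusion reached 4, or 2.38%, against 18.0%.

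Receptor genes are short, with a median of 1103 bp against 24467 bp over all protein-coding genes, and a long gene has more room for a summit. A window of 40 kb around each gene's midpoint takes gene length out of the count. By this rule FOXA1 full length reached 22.6% of receptor genes (Wilson interval 16.9% to 29.5%) against 37.4% of all genes. FOXA1 CTD-deleted reached 47.0% (39.6% to 54.6%) against 37.2%. FOXA2 reached 36.9% (30.0% to 44.4%) against 41.8% at full length and 42.3% (35.0% to 49.8%) against 43.2% after deletion. FOXA3 reached 3.57% in both lists, against 7.35% and 8.46%. The fusion reached 1.79% (0.609% to 5.12%) against 9.05%, and SOX2 reached 0 against 0.272%. Neighbouring receptor genes often share 1 summit, so the genes are not independent and these intervals are too narrow.

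**Figure D3:**
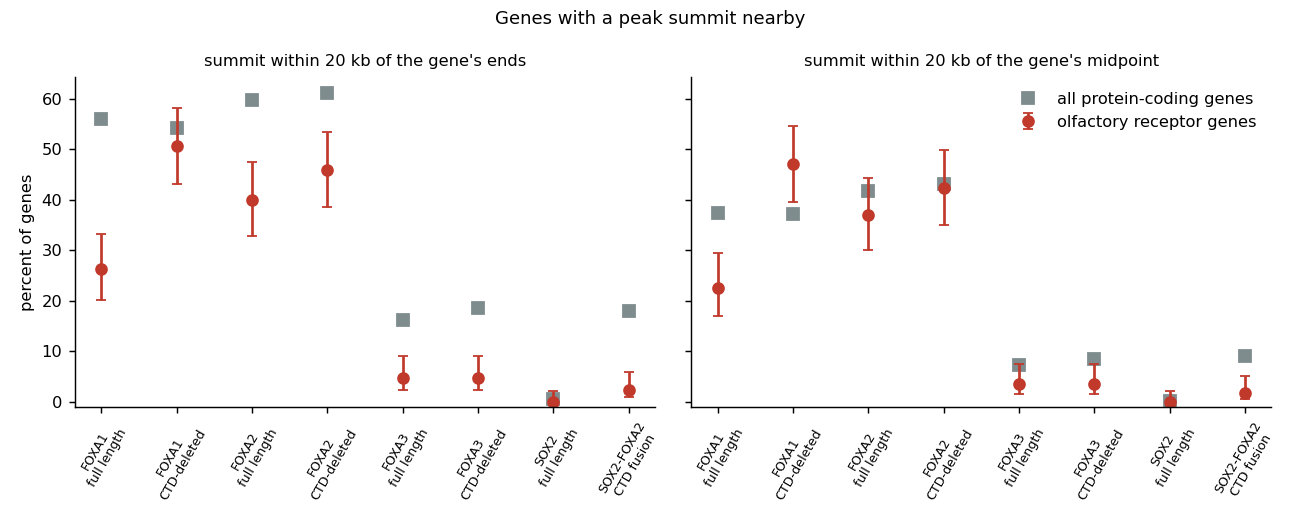
Percent of genes with a summit nearby (vertical axis) for each list (horizontal axis), for the 168 receptor genes (red, with Wilson 95% intervals) and all protein-coding genes (grey squares), counted from the gene's ends on the left and from its midpoint on the right. FOXA1 full length is below the squares in both panels, while FOXA1 CTD-deleted is at 50.6% against 54.1% on the left and 47.0% against 37.2% on the right.

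The genes without any summit were unevenly spread. In the class I cluster 28 of 55 genes were reached by 0 lists, and among class II genes 20 of 113 were. The OR2AG2 to OR2D3 cluster, with 8 genes, and the OR4B1 to OR4A47 cluster, with 7, had no unreached gene. In the short OR5P2 to OR10A3 group 3 of 4 genes were unreached. All 4 FOXA1 and FOXA2 lists reached 21 genes, 5 of class I and 16 of class II. Counts over several lists were not made for all protein-coding genes, so they are given here without a background. Summits of 6 lists were found near OR4S2, OR4C6, OR5M10, OR5M1 and OR2AT4, and summits of 5 near OR9Q1.

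Merging of overlapping peaks gave 137 sites in the windows. Of these, 83 were found in 1 list, 32 in 2, 12 in 3, 7 in 4, 2 in 5 and 1 in 6. Sites in at least 2 lists made up 39.4% in the windows and 44.4% in the rest of the chromosome, a difference of −4.96 points (−12.9 to 3.52). FOXA1 CTD-deleted alone gave 29 of the single-list sites and FOXA2 CTD-deleted alone gave 30. These were 42.6% and 46.9% of the receptor peaks of those lists, and peaks found in no other list made up 28.1% and 37.5% in the rest of the chromosome. Of the FOXA1 full-length receptor peaks, 21 of 31 (67.7%) overlapped a peak of the FOXA1 CTD-deleted list, against 55.7% in the rest. Of the 68 FOXA1 CTD-deleted receptor peaks 30.9% overlapped a full-length peak, against 42.1% in the rest, a difference of −11.2 points (−21.1 to 0.738). With an overlap of at least 50% of both peaks the latter difference was −15.8 points (−24.2 to −4.37). For the FOXA2 pair 25 of 51 full-length peaks (49.0%) overlapped a peak of the CTD-deleted list, against 48.8% in the rest. The 3 fusion peaks overlapped no other list, as did 62.5% of the fusion's 355 peaks in the rest.

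Sites found in at least 4 lists numbered 10, or 7.30% of the sites in the windows, against 11.3% in the rest of the chromosome (difference −4.03 points, −7.44 to 1.66). They are named by the nearest receptor gene. The site in 6 lists lies 14 kb from OR5M1 (chr11:56594944-56595580). Its −log10 p in both replicates was 6.95 and 7.39 with full-length FOXA1, 6.32 and 11.4 with CTD-deleted FOXA1, 7.24 and 5.84 for FOXA2 full length, and 5.06 and 8.43 for FOXA2 CTD-deleted. Both FOXA3 lists carried the same row there, with 7.57 and 7.84. The OR5M1 site thus had a value of at least 5.06 in both replicates of every FOXA list, and SOX2 and the fusion had no peak there.

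The site inside OR2AT4 (chr11:75081709-75083264), at the lower-numbered end of that gene, was in 5 lists and missing from FOXA1 full length. OR2AT4 is also expressed outside the nose, in skin cells. FOXA2 CTD-deleted had 9.54 and 9.31 there, its strongest receptor peak by the lower replicate value, ranked 1867 of 53415 peaks in that list. Both FOXA3 lists carried 7.24 and 15.9. The FOXA2 full-length values there were 5.19 and 2.60, and those of FOXA1 CTD-deleted 4.49 and 10.1. The site inside the long OR9Q1 gene (chr11:58075645-58076396) was missing from FOXA2 full length. FOXA1 had 8.95 and 3.28 there at full length and 5.98 and 8.98 after deletion, so the replicates differed by several units in both.

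The strongest receptor peak of the FOXA1 CTD-deleted list lay 18.8 kb from OR5B21, with a −log10 p of 13.4 and 19.7 (chr11:58526478-58527142, rank 1220 of 50539). Its summit also lies in LPXN, which encodes the adaptor protein leupaxin and is no receptor gene. FOXA1 full length had 8.44 and 5.33 at that site, FOXA2 full length 2.34 and 4.99, and FOXA2 CTD-deleted 7.15 and 5.79. The OR10Q1 site (chr11:58222182-58223115) held the strongest FOXA1 full-length receptor peak by the lower replicate value. Its values were 18.3 and 8.66, beside 8.00 and 19.7 for FOXA1 CTD-deleted. At OR5AS1 (chr11:56051613-56052768) FOXA1 had 8.00 and 7.39 at full length and 8.60 and 11.2 after deletion. FOXA2 had 6.59 and 3.23 there at full length and 2.96 and 2.96 after deletion.

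The class I cluster held 1 site of the 10, near OR52N1 (chr11:5799470-5800276). FOXA2 was listed there with 5.63 and 7.00 at full length and 7.15 and 7.81 after deletion, and FOXA1 with 6.31 and 5.46 and with 4.44 and 15.7. The remaining sites lay 216 to 267 bp from OR8U3 (chr11:56416450-56417742), in OR8G1 (chr11:124251986-124253388) and 1.6 kb from OR8D4 (chr11:123900043-123901068). Over these 3 sites the lower replicate value ran from 2.80 to 7.49. The map of strengths shows that FOXA3 had a peak at 3 of the 10 sites.

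**Figure D4:**
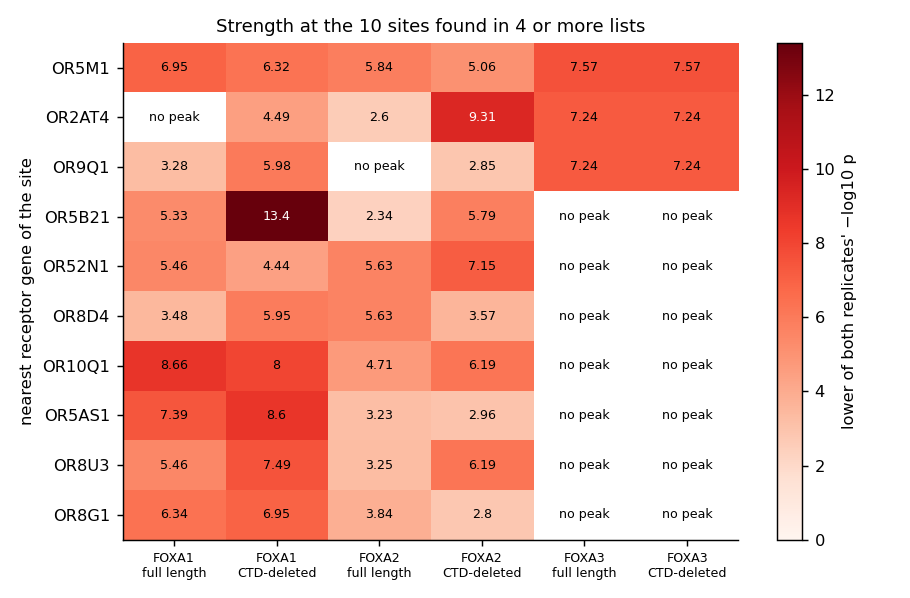
Strength, the lower of both replicates' −log10 p (colour and printed value), at the 10 sites found in 4 or more lists (rows, by nearest receptor gene) in the 6 FOXA lists (columns). Within their columns the highest values are 13.4 at OR5B21 for FOXA1 CTD-deleted and 9.31 at OR2AT4 for FOXA2 CTD-deleted, and FOXA3 has values only at OR5M1, OR2AT4 and OR9Q1.

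The fusion had 3 receptor peaks. The one nearest OR52K1 (chr11:4480598-4481277) had a −log10 p of 7.94 and 3.29. The one in OR56A3 (chr11:5959056-5959343) had 2.41 and 2.57, and the one near OR2D3 (chr11:6925979-6927081), with its summit in the zinc finger gene ZNF215, had 3.20 and 4.27. Their IDR scores were 137, 20 and 96, on a scale where 540 marks an IDR of 0.05, so none met that limit. Most of the fusion list did not meet it either. That list holds peaks of an IDR up to 0.920, and 614 of its 7895 peaks met 0.05.

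In the FOXA1 and FOXA2 lists the median receptor peak ranked below the median of the other peaks, by less than the spread of the receptor peaks. Counted from the strongest peak, their median rank was 52.9% down the FOXA1 full-length list, against 49.5% in the rest of the chromosome. It was 61.1% against 50.4% after deletion, 54.7% against 42.4% for FOXA2 full length and 57.8% against 48.6% for FOXA2 CTD-deleted. The median strength, the lower of both replicates' −log10 p, was 3.98 in the windows and 4.08 in the rest for FOXA1 full length. In the CTD-deleted list these medians were 4.04 and 4.33. It was 2.08 and 2.27 for FOXA2 full length and 2.80 and 2.96 for FOXA2 CTD-deleted. The strongest 25% of the FOXA1 full-length list, however, held 32.3% of its receptor peaks and 22.5% of the rest. In FOXA1 CTD-deleted these shares were 19.1% and 24.6%, in FOXA2 full length 27.5% and 26.4%, and in FOXA2 CTD-deleted 15.6% and 25.4%. The 5 FOXA3 receptor peaks had a median strength of 7.24, against 7.57 in the rest at full length and 7.23 after deletion. For the fusion, the median of the 3 receptor peaks ranked above that of the other peaks, with a strength of 3.20 against 2.72. Strength also depends on the unknown depth, so values of different lists stand side by side here and their order between lists carries no comparison of the factors.

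**Figure D5:**
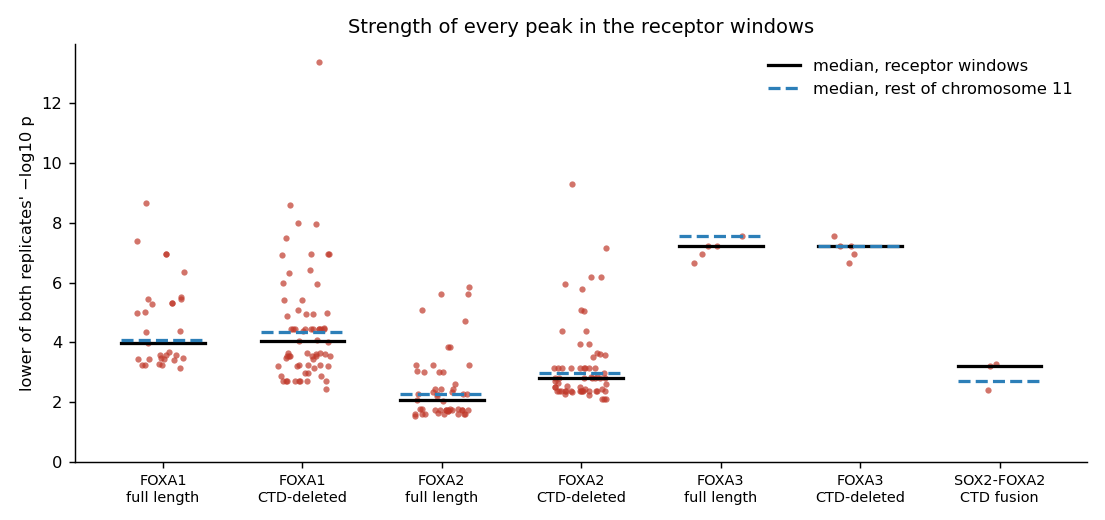
Strength (vertical axis, the lower of both replicates' −log10 p) of each peak in the receptor windows (red dots) by list (horizontal axis), with the median of the windows (black line) and of the rest of chromosome 11 (blue dashed line). The 2 medians differ by less than the spread of the dots in the FOXA1 and FOXA2 lists, for example 3.98 and 4.08 for FOXA1 full length.

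Most receptor peaks lay over 1 kb from the receptor starts in the promoter table, which holds starts for 135 of the 168 genes. Of the 227 peaks, 46 had a summit inside a receptor gene and 11 inside another protein-coding gene, and for 210 the nearest protein-coding gene was a receptor. Within 1 kb of one of the receptor starts in the promoter table lay 19 summits, 8.37%, where such positions make up 5.74% of the window bases. Within 5 kb lay 78 summits, 34.4%, against 27.7% of the bases. In the 4 FOXA1 and FOXA2 lists the share within 1 kb ran from 6.25% (2.46% to 15.0%) in FOXA2 CTD-deleted to 12.9% (5.13% to 28.9%) in FOXA1 full length, and each interval included 5.74%. The 20 kb limit had 4 summits just inside, at 19.1 to 19.6 kb from OR5J2 and OR8D4, and 1 just outside, at 20.6 kb from OR52N4, all of FOXA2 lists.

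The machinery that olfactory neurons use with these receptors was looked at through 24 listed genes outside the receptor family. CNGA4 and OMP among them also lie on chromosome 11, CNGA4 (chr11:6234793-6244976) close to the class I cluster. FOXA1 reached 13 of the 24 in each list, FOXA2 reached 11 and 14, FOXA3 reached 3 and 4, SOX2 reached 0 and the fusion reached 4. GNAL, the G protein alpha subunit that couples to the receptors, had summits of 7 lists, from 2 in each FOXA3 list and 3 in the fusion to 7 in FOXA2 full length. ANO2, the calcium-gated chloride channel of the cilia, also had summits of 7 lists. PDE1C, the calmodulin-dependent phosphodiesterase, had 9 and 23 in the FOXA1 lists and 17 and 21 in the FOXA2 lists over its 811 kb. OMP, the olfactory marker protein, had 1 summit, in the fusion list. LHX2 had 1, in FOXA1 full length. Long genes collect more summits, so these counts belong beside the shares of all protein-coding genes given above. The share was 54.2% against 55.9% for FOXA1 full length, and 45.8% against 59.7% for FOXA2 full length.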

How the data were processed

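Flag ChIP-seq was made in U2OS cells, 17 samples by the labels (8 factor groups with 2 replicates and 1 input). The authors' processing used FastQC 0.10.1, Trim Galore, Bowtie2 2.4.4, SAMtools 0.1.18, MACS2 and deepTools 2.4.1 with hg38, per the submitters' processing notes. The control and the IDR limits are not given in the sources used here. Of 14 deposited peak files, 4 were copies of others. The 8 combined lists carry a deposited IDR score (125 times −log2 of the IDR, capped at 1000), a summit position and the deposited −log10 p of both replicates, which are the authors' values and carry no replicate number. For SOX2 and the fusion a first-replicate list was also used. All positions are 1-based hg38. Genes and promoters came from RefSeq tables of GRCh38.p14.

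A peak counted by its summit. Clusters were split at gaps over 500 kb. Shares have Wilson, differences Newcombe, and density or count ratios exact conditional (Clopper-Pearson) 95% intervals, so no p-values were computed. Named peaks were the sites in at least 4 lists and the 2 strongest per list. Alternatives were windows of 10 and 50 kb, an IDR of at most 0.05, equal numbers, first-replicate lists, identical FOXA3 rows or the gene-free stretch left out, other overlap rules, shifted stretches, and, added after seeing the data, alternate-contig genes, windows away from other genes and settings for the receptor classes. Intervals and counting steps were tested on simulated data. Members and lists were chosen with earlier results of these data known. Replicates could not be compared, since for most groups only combined lists were used, and read depth is unknown.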

Additional observations from a re-analysis of the deposited data

Results flagged for a closer look

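Peaks on alternate contigs of chromosome 11 were outside the comparisons, because their place on the chromosome was not used here. The FOXA1 full-length list had 4 such peaks, the FOXA1 CTD-deleted list 9 and the FOXA2 full-length list 7, each above the 3 that a count of 0 allows. Whether any of them lies near the receptor genes OR9G9, OR8U8 and OR8U9 was not tested.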

How the results depend on the processing

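Over 43 results and 173 alternative values, 130 kept their call or stayed in range, 26 moved, 15 lost their call, 2 gained one and 0 reversed. No paired analysis was possible because each group has 1 combined list, and a replicate could be left out only for SOX2 and the fusion, through the lists of their first replicate. Density ratios whose interval then included 1 were, at an IDR of at most 0.05, 0.762 for FOXA1 full length, 0.436 for FOXA2 full length and 0 for the fusion. With 10 kb windows they were 0.735 and 0.820 for FOXA2 full length and CTD-deleted, and without the gene-free stretch 0.799 and 0.792. FOXA2 CTD-deleted gave 0.781 with equal numbers of the strongest peaks and 0.800 in windows away from other genes. The fusion gave 0 with equal numbers and 0.795 in its first-replicate list, and SOX2 gave 0.508 there, now with an interval below 1. The FOXA1 difference in share lost its call at 50 kb (1.07 points), at an IDR of at most 0.05 (0.456) and with equal numbers (0.969). The class I to class II ratio was 0.410, now with an interval below 1, for FOXA1 full length at 50 kb, and 0.306, including 1, for FOXA2 CTD-deleted at an IDR of at most 0.05. The cause was not tested in any of these, though a stricter limit leaves fewer peaks.

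The percent of receptor genes reached followed the window by construction. At 10 kb it was 16.7% and 33.9% for FOXA1 full length and CTD-deleted and 26.8% and 31.0% for FOXA2. At 50 kb it was 52.4% and 80.4%, 65.5% and 67.3%, 11.3% for each FOXA3 list and 7.74% for the fusion. At an IDR of at most 0.05 it was 10.1% for FOXA1 full length, 1.79% and 16.1% for FOXA2 and 0 for the fusion. Equal numbers gave 38.7% for FOXA1 CTD-deleted and 0 for the fusion, and without the identical rows FOXA3 full length was at 0. First-replicate lists gave 11.9% for SOX2 and 39.3% for the fusion. Clusters below their median numbered 2 for FOXA1 full length and 0 for FOXA2 full length at an IDR of at most 0.05, and 2 for FOXA1 CTD-deleted with shifted stretches. Receptor peaks found in the paired list fell to 48.4% for FOXA1 full length with 50% overlap and 48.4% with summits within 100 bp, and to 35.3% for FOXA2 full length with the latter.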

Other observations

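Receptor pseudogenes were counted in the same way. Windows of 20 kb around 205 pseudogenes of the family on chromosome 11, outside the windows of the protein-coding genes, covered 2.33 Mb. Their summit density was close to that of the rest of the chromosome, with ratios of 1.01 (0.666 to 1.46) for FOXA1 at full length and 1.00 (0.704 to 1.39) after deletion. FOXA2 gave 0.943 (0.647 to 1.33) at full length and 1.09 (0.790 to 1.47) after deletion. The fusion had 1 summit there, a ratio of 0.155 (0.00391 to 0.868). For FOXA1 full length this stands beside 0.540 (0.366 to 0.770) at the protein-coding receptor genes, and the difference between those ratios was not tested.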
